A study of Mus musculus with 4 samples.

Results

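The genes described here are 10 neural cell adhesion molecules, chosen by gene symbol with no threshold on a measured value: L1cam, Chl1, Nrcam, Nfasc, Ncam1, Ncam2, Cntn1, Alcam, Cadm1 and Cdh2. These genes, and the lists of partner genes below, were chosen with earlier results of these data known. All 10 were present among the 24340 genes with a value in every library. They were read in 4 RNA-seq libraries of CAD cells, a mouse catecholaminergic line that becomes neuron-like when serum is taken away. The cells of all 4 libraries were kept serum-free for 5 days. The controls received the solvent DMSO for 24 h (2 libraries), and the treated cells received for the same 24 h 20 µM of a quinoxaline urea that inhibits ACSS2, an enzyme that makes acetyl-CoA from acetate (2 libraries, called ACSS2i here). Both groups are the same cell line with no genetic change named in the labels, and the inhibitor is the only agent the labels name as separating them. The labels do not say whether replicates were separate cultures, so the p-values rest on a spread between libraries that may be technical.

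Cell adhesion molecules of the nervous system are membrane proteins that hold neurites to each other, to glia and to the matrix, and that guide axons and place synapses. Most of these 10 carry immunoglobulin domains. L1cam, Chl1, Nrcam and Nfasc form the L1 family, whose cytoplasmic tails bind ankyrin, and Ncam1 and Ncam2 form the NCAM family. Cntn1 is held in the membrane by a lipid anchor, Alcam and Cadm1 are immunoglobulin receptors of axons and synapses, and Cdh2 is N-cadherin, which binds calcium and is tied to actin through catenins. L1 and NCAM proteins are cut from the cell surface by membrane proteases, and NCAM can carry polysialic acid, which weakens its adhesion.

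The values were taken as FPKM, since no unit is named for them and their adjustment is not described. FPKM count fragments relative to transcript length and to the size of the library, so on this reading they can be set side by side between genes. The lowest value in each library was 0.01, a floor. The FPKM of all genes summed to 590549 and 590108 in the DMSO pair and to 558458 and 675716 in the ACSS2i pair. The values and the main comparison below were not rescaled to equal totals, so small differences between libraries depend on this scale. The relative depth of the libraries, read from the low values, was 1 and 0.292 for the DMSO pair (replicates 1 and 2) and 0.675 and 0.857 for the ACSS2i pair, so DMSO replicate 2 was the shallowest. Of 12 markers of neuron-like catecholaminergic cells, 11 had a mean of at least 1 FPKM, 2 (Chgb and Syp) were lower and 0 higher in both inhibitor libraries, and their summed level was 7935 and 11200 FPKM in the controls and 5145 and 4101 with the inhibitor, most of it Chgb. Tubb3, a neuronal tubulin, stood at 99.0 and 134 FPKM without and 121 and 323 with the inhibitor, and Th, tyrosine hydroxylase, at 3.53, 3.16, 4.09 and 2.92 FPKM. Dbh, dopamine beta-hydroxylase, was below 1 FPKM in each of the 4 libraries. Of the 17 markers of glia, microglia, endothelium and fibroblasts examined here, 1, Mbp, had a mean of at least 1 FPKM, and the glial markers Sox10 and Mog reached at most 0.217 FPKM. The summed level of the 4 astrocyte markers was 0.0932 and 0.413 FPKM in the DMSO pair, against 0.456 and 0.914 in the ACSS2i pair. Each of the 4 was at most 0.479 FPKM in any library, with some values at the floor, and a difference between the groups was not tested. Of the 17 markers, 3 (Gfap, Aqp4 and Pecam1) were higher and 0 lower in both inhibitor libraries, against 19.0% and 18.3% of all tested genes. Pecam1, an endothelial marker, was at 0.355 and 0.348 FPKM in the DMSO pair and 1.62 and 0.717 in the ACSS2i pair. Acss2, the target of the inhibitor, was at 11.7 and 10.0 FPKM in the controls and 12.8 and 26.6 with the inhibitor, and its RNA level does not report on the activity of the enzyme.

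A total of 3 levels of expression could be told apart among the 10 genes. L1cam, Cadm1 and Ncam1 stood between 19.6 and 71.8 FPKM in all 4 libraries and together made up 92.2% to 93.8% of the summed FPKM of the members. Cdh2, Nrcam and Nfasc were between 0.543 and 4.63 FPKM. Ncam2, Cntn1, Alcam and Chl1 reached at most 0.138 FPKM. In DMSO the order of the means was L1cam, Cadm1, Ncam1, Cdh2, Nrcam and Nfasc. The ranges of Cdh2 and Nrcam overlapped, as did those of Nrcam and Nfasc, so the order within these 3 was not separated from the spread. With the inhibitor the order was unchanged, but the ranges of Cadm1 and Ncam1 overlapped there and those of Cdh2, Nrcam and Nfasc did not. Among all genes of a library, L1cam lay at percentile 91.6 to 95.5 and Nfasc at percentile 51.2 to 61.0.

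**Figure D1:**
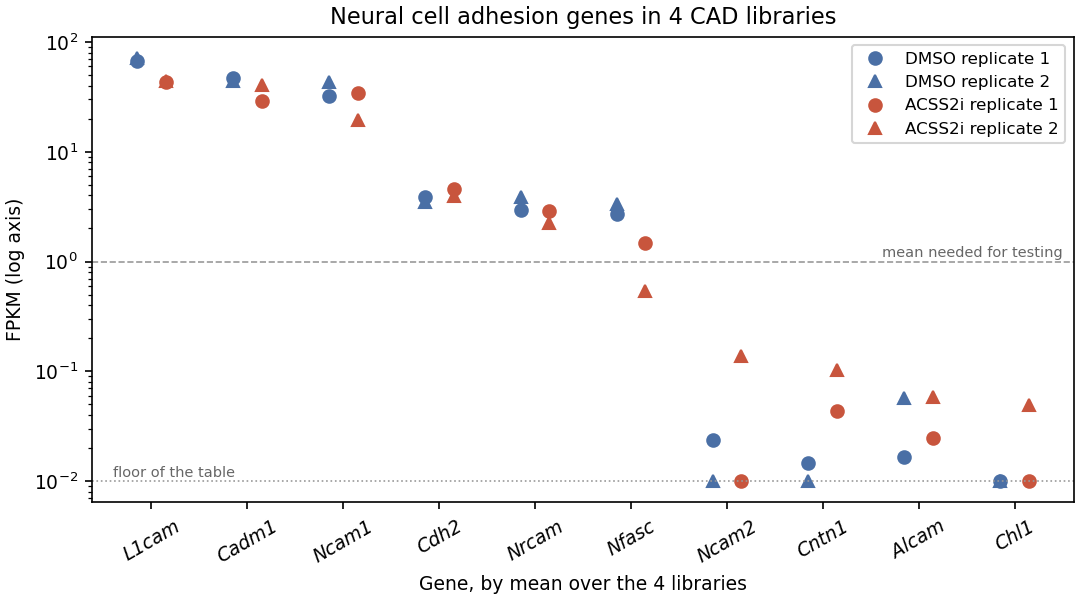
FPKM on a log axis for the 10 genes, ordered by their mean, with 1 point per library (blue DMSO, red ACSS2i; circles replicate 1, triangles replicate 2). L1cam, Cadm1 and Ncam1 lie at or above 19.6 FPKM in each library, while Ncam2, Cntn1, Alcam and Chl1 lie near the floor of 0.01 (dotted line).

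The question of the comparison was how the RNA of these genes differed between cells given the inhibitor and cells given DMSO. A total of 6 members had a mean of at least 1 FPKM and were tested, namely L1cam, Nrcam, Nfasc, Ncam1, Cadm1 and Cdh2. Of these, 4 genes, L1cam, Nrcam, Nfasc and Cadm1, lay below both controls in each inhibitor library, against 18.3% of all 11486 tested genes. Cdh2 was higher in both, against 19.0% of all tested genes, and Ncam1 overlapped. Of the 6, 5 had a negative log2 fold change, against 47.8% of all tested genes. The median log2 fold change of the 6 was -0.46, beside 0.02 over all tested genes. By limma with Benjamini-Hochberg adjustment over all tested genes, 0 of the 6 passed an adjusted p of 0.05, where 0.0261% of all tested genes did. At an unadjusted p under 0.05 there were 2 of the 6, L1cam and Nfasc, both lower, against 3.67% of all tested genes lower. When 1 library was left out, the log2 fold change of L1cam ran from -0.69 to -0.61 and that of Nfasc from -1.38 to -0.69. That of Ncam1 ran from -0.91 to -0.12 and that of Cadm1 from -0.63 to -0.18. The summed FPKM of the 10 members was 157 and 171 in DMSO and 116 and 111 in ACSS2i. In bulk RNA, fewer cells that express a gene and less RNA per cell cannot be told apart. Markers of dividing cells moved with the groups: 4 of 4 were higher in both inhibitor libraries, with a summed level of 4.51 and 11.1 FPKM without and 52.8 and 114 with the inhibitor, and Mki67 went from 1.18 and 4.13 to 22.2 and 24.9 FPKM. Of the 12 neuron-like markers given above, 2, Chgb and Syp, were lower in both inhibitor libraries and 0 higher, and the others overlapped between the groups. Their summed level was lower with the inhibitor, but most of that sum was Chgb. The part of either in the differences of the adhesion genes was not tested.

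The L1 family held the members with the smallest unadjusted p, Nfasc and L1cam. L1cam, the founding member, which promotes axon growth and bundling, lies on chromosome X from 73853778 to 73896105 on the minus strand (mm10, ENSMUSG00000031391.18). It was at 67.7 and 71.8 FPKM in the DMSO pair, against 43.7 and 44.4 in the ACSS2i pair. In these values, not rescaled to equal totals, the replicates of each group were close together and the groups were well apart. The FPKM totals of the inhibitor libraries differed, so the closeness of that pair depends on the scale. The means were 69.8 ± 2.92 and 44.1 ± 0.471 FPKM (SD, n = 2 each), a change of -36.8%. The log2 fold change on log2(FPKM + 1) was -0.65 ± 0.22 (SE; 95% interval -1.20 to -0.10; limma unadjusted p = 0.0272, adjusted p = 0.623). The inhibitor libraries stood at -0.66 and -0.64 on this scale when each was set against the mean of the controls. In the annotation, exons of L1cam overlap exons of Arhgap4 on the same strand. Arhgap4 was at 1.74 and 1.06 FPKM in the controls and 0.915 and 0.475 with the inhibitor, far below L1cam.

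Nfasc, neurofascin, which gathers sodium channels at the axon initial segment and at nodes of Ranvier, lies on chromosome 1 from 132564690 to 132741797 on the minus strand. It was at 2.70 and 3.35 FPKM without and 1.48 and 0.543 with the inhibitor. Both inhibitor libraries were below both controls, and ACSS2i replicate 2 was the lower of the pair. The means were 3.02 ± 0.463 and 1.01 ± 0.666 FPKM (SD, n = 2 each), a change of -66.5%. The log2 fold change was -1.03 ± 0.35 (SE; 95% interval -1.90 to -0.17; limma unadjusted p = 0.0261, adjusted p = 0.618). At so low a level the size depended on the pseudocount, with -1.62 at a pseudocount of 0.1 and -0.42 at a pseudocount of 5.

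Nrcam, which shares with Nfasc a place at the axon initial segment, lies on chromosome 12 from 44328885 to 44601964 on the plus strand. It was at 2.97 and 3.88 FPKM in the DMSO pair, against 2.87 and 2.23 in the ACSS2i pair. The groups did not overlap, but ACSS2i replicate 1 and DMSO replicate 1 were separated by less than the replicates within either group. The log2 fold change was -0.32 ± 0.28 (SE; 95% interval -1.003 to 0.37; limma adjusted p = 0.854), so a fall of a size like that of L1cam and an absence of change both lie inside the interval.

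Chl1, the close homolog of L1, on chromosome 6 from 103510586 to 103750211 on the plus strand, was at the floor in both DMSO libraries and in ACSS2i replicate 1, and at 0.0490 FPKM in ACSS2i replicate 2. The L1 family was thus present as L1cam at a high level, as Nrcam and Nfasc at a low level, and with next to no Chl1 RNA.

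**Figure D2:**
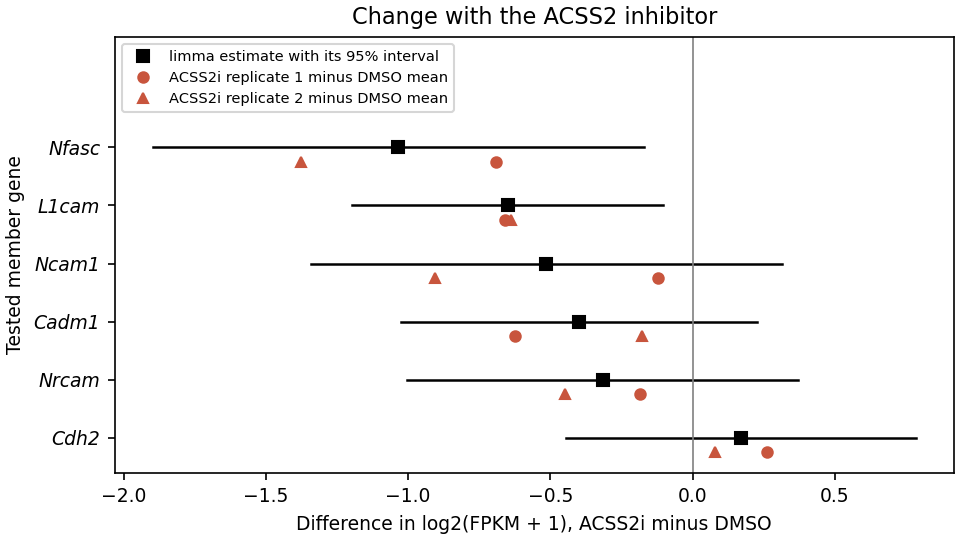
Difference in log2(FPKM + 1) between ACSS2i and DMSO for the 6 tested members, with limma's estimate and 95% interval (black) and each inhibitor library relative to the DMSO mean (red). The intervals of Nfasc and L1cam lie below 0 before adjustment for the number of genes tested, and those of Ncam1, Cadm1, Nrcam and Cdh2 span 0.

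Upstream sequence is shown for the 3 L1 family members that were lower, L1cam, Nrcam and Nfasc, and for Ncam2 as a member near the floor, in each case from a window that lies outside the annotated exons of the gene. Each run is the 250 bases before a RefSeq transcription start (GRCm38.p6), printed 5′ to 3′ on the strand of the gene, with every CpG dinucleotide in capitals. The L1cam window is chrX:73880835-73881084 on the minus strand, the Nrcam window chr12:44328635-44328884 on the plus strand, the Nfasc window chr1:132642859-132643108 on the minus strand and the Ncam2 window chr16:81200447-81200696 on the plus strand. The L1cam and Nfasc starts lie inside the spans of these genes given above, downstream of the 5′ end, and which start CAD cells use was not tested. The Nfasc run ends in a stretch rich in C and T followed by AG, as introns do before an exon. Whether it is promoter sequence was not tested, so its letter counts below may not describe a promoter.
L1cam: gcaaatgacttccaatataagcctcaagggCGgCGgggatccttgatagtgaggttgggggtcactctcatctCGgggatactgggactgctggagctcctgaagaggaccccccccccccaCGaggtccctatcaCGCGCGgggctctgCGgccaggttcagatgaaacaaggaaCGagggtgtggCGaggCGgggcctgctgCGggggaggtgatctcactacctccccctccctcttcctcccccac
Nrcam: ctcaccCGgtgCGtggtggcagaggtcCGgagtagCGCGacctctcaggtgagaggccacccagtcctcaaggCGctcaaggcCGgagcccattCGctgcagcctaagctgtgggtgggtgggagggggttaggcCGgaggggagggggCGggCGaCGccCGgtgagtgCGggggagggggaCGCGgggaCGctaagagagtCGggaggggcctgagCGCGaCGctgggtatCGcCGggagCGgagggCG
Nfasc: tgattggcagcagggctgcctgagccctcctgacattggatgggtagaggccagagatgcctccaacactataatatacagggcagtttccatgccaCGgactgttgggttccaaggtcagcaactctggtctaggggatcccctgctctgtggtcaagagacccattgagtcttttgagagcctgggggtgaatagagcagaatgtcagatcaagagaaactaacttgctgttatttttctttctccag
Ncam2: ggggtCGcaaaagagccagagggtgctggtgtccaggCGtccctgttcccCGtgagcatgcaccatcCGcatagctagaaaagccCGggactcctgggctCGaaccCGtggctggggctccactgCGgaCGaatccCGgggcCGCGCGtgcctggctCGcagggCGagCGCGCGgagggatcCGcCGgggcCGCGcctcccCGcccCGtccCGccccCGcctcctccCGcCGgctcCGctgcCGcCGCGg

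The L1cam window held 12 CpGs, the Nrcam window 25, the Nfasc window 1 and the Ncam2 window 32, where the median over 32851 RefSeq windows of the same length was 6. Among these 4 the Ncam2 window had the most CpGs, and Ncam2 had the least RNA. A relation of CpG density to RNA level was not tested. RefSeq entries were matched for 7 of the 10 members, and Ncam1, Cadm1 and Cdh2 were not matched. Of the other low members, the Alcam window held 22 CpGs and that of Chl1 8, but both windows overlap annotated exons of their gene. The 3 windows of Cntn1 held 7, 3 and 3. A second Nfasc window, which overlaps an exon in part, held 4. A second L1cam window, from a start slightly further downstream, also overlaps an exon in part and held 20. The GC box GGGCGG, searched on both strands, occurred 1 time in the printed L1cam window, 1 time in that of Nrcam, 0 times in that of Nfasc and 2 times in that of Ncam2, and 32.7% of all windows hold it. Each GC box contains 1 of the counted CpGs. The TATA box TATAAA, held by 12.4% of all windows, had 0 matches in the 4 printed runs, and CCAAT, held by 33.8%, had 1 match in L1cam and 2 in Nfasc. These are matches of letters in a window and not measured sites.

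In the NCAM family the members were far apart in level. Ncam1, the abundant glycoprotein of neuronal surfaces, lies on chromosome 9 from 49502136 to 49798925 on the minus strand. It was at 32.3 and 43.7 FPKM in the controls and 34.5 and 19.6 with the inhibitor. ACSS2i replicate 1 lay between the controls and ACSS2i replicate 2 below them, so the groups overlapped. The log2 fold change was -0.51 ± 0.34 (SE; 95% interval -1.34 to 0.31; limma adjusted p = 0.811), and the inhibitor replicates 1 and 2 differed from the mean of the controls by -0.12 and -0.91. The ratio of Ncam1 to L1cam FPKM was 0.477 and 0.608 in DMSO and 0.788 and 0.441 in ACSS2i, so it was both highest and lowest with the inhibitor. An exon of Gm11149 overlaps Ncam1 on the opposite strand. Gm11149 was at 1.71 and 5.60 FPKM without and 2.42 and 2.94 with the inhibitor, and whether the counting used strand is not given in the sources used here.

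Ncam2, best known from olfactory axons, lies on chromosome 16 from 81200697 to 81626828 on the plus strand. It was at 0.0236 FPKM in DMSO replicate 1, at the floor in DMSO replicate 2 and ACSS2i replicate 1, and at 0.138 FPKM in ACSS2i replicate 2. If its smallest value above the floor is 1 read, these are 1, 0, 0 and 5 reads in the order DMSO replicate 1 and 2, then ACSS2i replicate 1 and 2. In the shallow DMSO replicate 2 a count of 0 allows up to 0.243 FPKM (3 reads, counting error only), which is above the highest value seen. That library thus cannot be told apart from ACSS2i replicate 2. The inhibitor pair was itself split, with 0 and 5 reads, so no difference between the groups was shown.

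Cntn1, contactin 1, a lipid-anchored partner of L1 proteins and of Cntnap1, lies on chromosome 15 from 92051165 to 92341967 on the plus strand. DMSO replicate 1 had 0.0145 FPKM and DMSO replicate 2 the floor value, and the inhibitor libraries had 0.0430 and 0.102 FPKM. On the same reading these are 1, 0, 2 and 6 reads, and a count of 0 in DMSO replicate 2 allows up to 0.149 FPKM. The groups did not overlap, but both inhibitor values lie under that limit.

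Alcam, the activated leukocyte cell adhesion molecule, which in neurons acts in axon bundling, lies on chromosome 16 from 52248996 to 52454074 on the minus strand. It was at 0.0167 and 0.0572 FPKM in the DMSO pair, against 0.0247 and 0.0584 in the ACSS2i pair, which corresponds to 1, 1, 1 and 3 reads. The first 3 of these values thus differ only by the worth of a single read at different depths. For Alcam, Cntn1 and Ncam2 all 9 values above the floor, scaled by depth, lay within 0.0945% of a whole multiple of the smallest. The smallest value of each gene meets this by construction. The depths were themselves read from low genes, these among them, so this is only a partial check of the read counts. For Chl1 only 1 library was above the floor, so its reads could not be counted in this way.

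**Figure D3:**
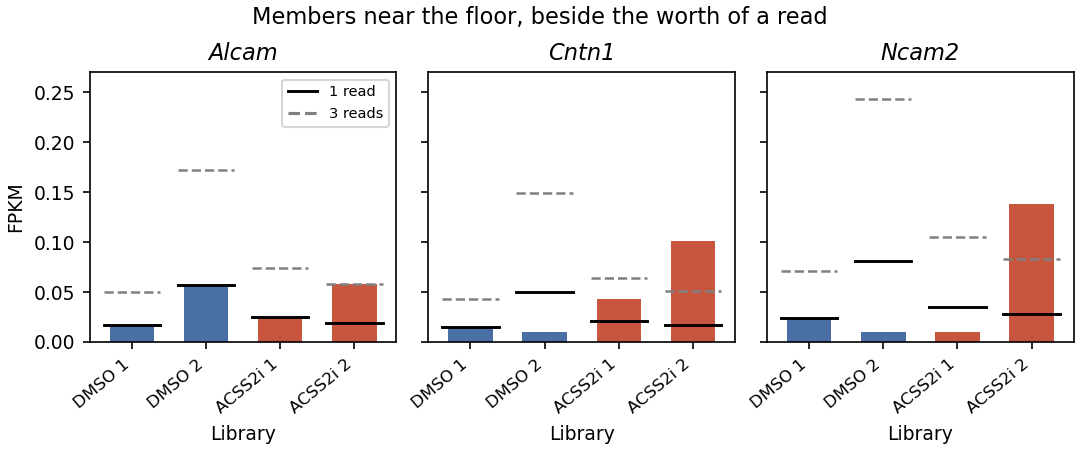
FPKM of Alcam, Cntn1 and Ncam2 in each library (bars; blue DMSO, red ACSS2i), with the worth of 1 read (black line) and of 3 reads (dashed line) in that library. Bars at 0.01 are the floor of the table and stand for no reads; the Alcam bars of the first 3 libraries end at the worth of 1 read.

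Cadm1, also called SynCAM1, which joins pre- and postsynaptic membranes, lies on chromosome 9 from 47530173 to 47857637 on the plus strand. It was at 46.9 and 44.3 FPKM in the controls and 29.2 and 40.2 with the inhibitor. Both inhibitor libraries were below both controls, with ACSS2i replicate 2 near them. The means were 45.6 ± 1.84 and 34.7 ± 7.79 FPKM (SD, n = 2 each), a change of -23.9%. The log2 fold change was -0.40 ± 0.26 (SE; 95% interval -1.03 to 0.23; limma adjusted p = 0.809). The ratio of Cadm1 to L1cam was 0.693 and 0.617 in DMSO and 0.668 and 0.906 in ACSS2i.

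Cdh2, N-cadherin, on chromosome 18 from 16588877 to 16809246 on the minus strand, was the only member outside the immunoglobulin superfamily and the only tested member with a positive log2 fold change. It was at 3.91 and 3.49 FPKM without and 4.63 and 3.96 with the inhibitor. ACSS2i replicate 2, the library with the largest FPKM total, was just above DMSO replicate 1. The log2 fold change of 0.17 ± 0.25 (SE; 95% interval -0.44 to 0.78; limma adjusted p = 0.928) was smaller than its error.

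Most related receptors outside the 10 members were too low to test. Of 26 related adhesion receptors, 10 were tested and 16 were below the filter, among them Cntn2, Cntn4, Cntn5, Cadm2, Cadm3 and 7 classical or atypical cadherins. Of the 10 tested, 6 were lower and 2 higher in both inhibitor libraries (18.3% and 19.0% of all tested genes), with a median log2 fold change of -0.58, and 0 passed an adjusted p of 0.05 by limma. At an unadjusted p under 0.05 there were 2 lower and 1 higher, where 3.67% of all tested genes were lower and 3.29% higher. Mcam, an immunoglobulin adhesion receptor, was at 11.1 and 9.32 FPKM in the DMSO pair, against 6.34 and 2.79 in the ACSS2i pair (log2 fold change -1.08). This value was -0.60 without ACSS2i replicate 2 and -1.56 without ACSS2i replicate 1. Pvrl2, nectin 2, was at 14.2 and 15.1 FPKM in the controls and 10.2 and 8.05 with the inhibitor (log2 fold change -0.63). Cntn6, a contactin that was above the filter where Cntn1 was not, went the other way, at 1.08 and 1.94 FPKM without and 4.63 and 3.24 with the inhibitor (log2 fold change 0.98).

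Co-receptors and extracellular partners of the L1 and NCAM proteins mostly had negative log2 fold changes. Of 24 such genes 18 were tested, 15 had a negative log2 fold change, 7 were lower and 0 higher in both inhibitor libraries, and the median was -0.39. Over all tested genes 47.8% were negative, and 18.3% were lower and 19.0% higher in both. By limma 0 of the 18 passed an adjusted p of 0.05, and 5 were lower at an unadjusted p under 0.05, where 3.67% of all tested genes were. Ncan, neurocan, a matrix proteoglycan that binds L1cam and Ncam1, was at 2.69 and 3.71 FPKM in the DMSO pair, against 0.861 and 0.771 in the ACSS2i pair (log2 fold change -1.20 ± 0.30, SE; adjusted p = 0.491). Bcan, brevican, of the same proteoglycan family, had 8.12 and 6.16 FPKM in the controls and 3.77 and 2.96 with the inhibitor. Ptprg, a receptor phosphatase that binds contactins, had 11.6 and 14.6 FPKM without and 6.41 and 6.76 with the inhibitor (log2 fold change -0.89). Nrp1, the semaphorin receptor that pairs with L1cam, had 13.9 and 15.7 FPKM in the DMSO pair, against 5.32 and 10.8 in the ACSS2i pair (log2 fold change -0.87, and -0.41 without ACSS2i replicate 1). Itga3, an integrin subunit, had 2.83 and 4.05 FPKM in the controls and 1.46 and 0.659 with the inhibitor. In all 5 the groups did not overlap.

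The proteases that release adhesion molecules from the membrane likewise mostly had negative log2 fold changes. All 9 listed sheddase and gamma-secretase genes were tested, 8 had a negative log2 fold change, 4 were lower and 0 higher in both inhibitor libraries, and the median was -0.29, beside the same shares of 47.8% negative, 18.3% lower and 19.0% higher over all tested genes. By limma 0 passed an adjusted p of 0.05 and 1, Bace1, was lower at an unadjusted p under 0.05 (3.67% of all tested genes). Bace1, the beta-secretase, whose substrates include Chl1, was at 8.16 and 9.31 FPKM without and 5.02 and 5.03 with the inhibitor (log2 fold change -0.69 ± 0.23, SE; adjusted p = 0.618).

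Of 10 genes for the synthesis of polysialic acid and of HNK-1, another carbohydrate carried by adhesion molecules, 5 were tested, with a median log2 fold change of 0.20 and 0 past an adjusted p of 0.05 by limma. The HNK-1 enzymes B3gat1, B3gat2 and Chst10 were below the filter, at no more than 0.328 FPKM. St8sia2 was at the floor in all 4 libraries and St8sia4 in 3 of them, with 0.0779 FPKM in ACSS2i replicate 2. St8sia2 and St8sia4 are the enzymes that build polysialic acid on NCAM, and they were at or near the floor beside an Ncam1 level of 19.6 to 43.7 FPKM. St8sia3, a related sialyltransferase, was at 18.4 and 14.2 FPKM in the DMSO pair, against 10.2 and 7.05 in the ACSS2i pair (log2 fold change -0.85; limma unadjusted p = 0.0213, adjusted p = 0.618). It was the 1 gene of this list lower at an unadjusted p under 0.05, where 3.67% of all tested genes were.

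The counts for cytoplasmic partners stand beside 18.3% of all tested genes lower and 19.0% higher in both inhibitor libraries. Among 8 tested ankyrin, spectrin and ERM linkers, which tie L1 proteins to the cytoskeleton, 1 was lower and 2 were higher in both inhibitor libraries, with a median of 0.20. Ezr, ezrin, was at 9.72 and 12.4 FPKM in the controls and 18.3 and 22.6 with the inhibitor (log2 fold change 0.83, unadjusted p = 0.0159 by limma). Among 14 tested catenins and junction linkers, the partners of Cdh2 and Cadm1, 1 was lower and 2 were higher, with a median of 0.12 and 0 at an unadjusted p under 0.05. Mpp6, a membrane-associated guanylate kinase, was the most abundant of them, at 83.5 and 101 FPKM without and 179 and 114 with the inhibitor (log2 fold change 0.63, and 0.31 without ACSS2i replicate 1 or 0.96 without ACSS2i replicate 2). Among 15 tested signalling genes 0 were lower and 1 was higher, with a median of 0.07. The most abundant, Gap43, a growth cone protein that acts downstream of NCAM, was at 421 and 367 FPKM in the DMSO pair, against 210 and 436 in the ACSS2i pair, so the inhibitor libraries lay on either side of the controls. By limma 0 genes of these 3 lists passed an adjusted p of 0.05. The differences between the lists were not tested.

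**Figure D4:**
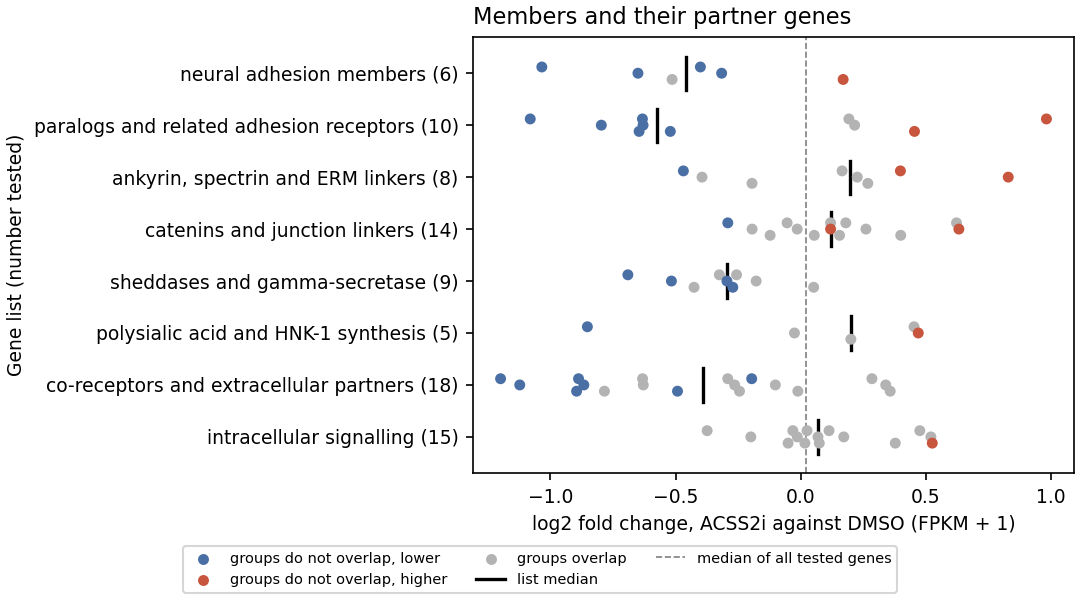
Log2 fold change of each tested gene (points) in the 10-member set and in 7 lists of partner genes, coloured by whether the groups overlapped, with the median of each list (black) and of all tested genes (dashed line). The medians of the members, the related receptors and the extracellular partners are -0.46, -0.58 and -0.39, and those of the 3 lists of cytoplasmic partners lie between 0.07 and 0.20.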

How the data were processed

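The deposited table had rows for 24341 genes and columns for the 4 libraries, without a named unit. The values were taken as FPKM made by the authors, since Cufflinks 2.2.1 is named beside bcl2fastq 02.14.01.07, STAR 2.3.0, Cuffdiff and the build mm10, per the submitters' processing notes, and since the values are not whole and have a floor of 0.01. Roles of the tools, annotation, strand setting and the adjustment named in the table are not given in the sources used here. A total of 1 gene (Sept7) with a failure mark was left out.

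Libraries were matched to groups by the column names in the labels. Inhibitor and DMSO libraries were compared with limma 3.58.1 in R 4.3.3 (moderated test, mean-variance trend, two-sided) on log2(FPKM + 1), keeping 11486 genes whose mean reached 1 FPKM, with Benjamini-Hochberg adjustment over all of them and 0.05 as the threshold. Fold changes on this scale understate those of low genes. With 2 libraries a group, 0.333 is the smallest exact two-sided permutation p. The fit was tested on simulated data. Relative depths came from the ratio to DMSO replicate 1 that recurred most often in genes at or under 0.5 FPKM. Absolute depth is unknown. Coordinates are from GENCODE M21 and upstream sequences from RefSeq, both GRCm38, the assembly of mm10. Listed genes were matched by symbol, and 4 (protein 4.1 genes) through RefSeq synonyms.

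Genes named are the 10 members, Th, Dbh, Tubb3, Mki67 and Acss2, and from each of the 7 partner lists the genes with an unadjusted p under 0.05, or else the most abundant; others were chosen after their values were seen. Some marker genes are not reported here. The members and lists were chosen with earlier results of these data known. Alternatives were other pseudocounts, filters and scalings, no trend, a replicate block and leaving out each library.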

Additional observations from a re-analysis of the deposited data

How the results depend on the processing

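Over the 11486 tested genes, 3 passed an adjusted p of 0.05 by limma. The count was 6 with a pseudocount of 0.1, 0 with a pseudocount of 5 (795 at an unadjusted p under 0.05) and 0 without a filter on low values (1342 at an unadjusted p under 0.05). It ran from 13 to 26 when 1 library was left out, where only the complete pair gives a spread and the lone library is assumed to vary like it. With the replicate block it was 8. Replicate 1 of the groups deviated from the group means with a correlation of -0.0165 across genes, so no effect shared by replicate number was seen. Whether libraries of the same number were handled together cannot be told from this. The block left 1 member, Nfasc, at an unadjusted p under 0.05 by limma. Of the members 0 passed in each alternative that kept all 4 libraries, and 1 or 2 had an unadjusted p under 0.05 by limma there. Where the filter was unchanged, 745 to 809 of all 11486 tested genes had such a p. The 6 tested members kept their direction in every alternative that tested them: L1cam ranged from -0.70 to -0.61, Nfasc from -1.62 to -0.42, Nrcam from -0.46 to -0.16, Ncam1 from -0.91 to -0.12, Cadm1 from -0.63 to -0.18 and Cdh2 from 0.08 to 0.26. The count of members lower in every inhibitor library was 4 of 6 under quantile or upper quartile scaling, beside 18.3% of all tested genes before scaling. The use of these scalings for the count was chosen after seeing the data. Leaving out 1 library cannot lower this count, so doing so was no check of it. Among named partner genes Gap43 changed sign, to 0.15 without ACSS2i replicate 1, in a range of -0.90 to 0.15 when 1 library was left out; the cause was not tested. The shallow DMSO replicate 2 limits what can be said of Ncam2, Cntn1, Alcam and Chl1.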
